A study of Mus musculus with 4 samples.

Results

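Plasmacytoid dendritic cells were found among the cells sorted from MC38 tumours in both genotypes. They made up 74 of the 1679 barcodes kept (35 of 874 in the knockout library and 39 of 805 in the control library). The cells were chosen by their own counts: a barcode was taken when it had at least 200 genes and at most 10% mitochondrial UMIs, at least 3 UMIs (unique molecular identifiers, 1 per captured transcript) of Siglech, fewer than 3 of Cd79a, and at least 1 of Ccr9, Klk1 or Cd300c. The knockout mice, labelled Blimp-1 KO, were Prdm1 f/f with a B-lineage cre, and the control mice were Prdm1 f/f, so all mice carried the floxed Prdm1 allele and only the knockouts carried cre. All were C57BL/6 females aged 12 to 16 weeks. MC38 is a mouse colon carcinoma line; it was grown under the skin, tumours of 11 recipients per genotype were collected on day 18, and their sorted cells made 1 expression library per genotype, with its V(D)J library. Viable cells positive for B220, a CD45 isoform of B cells and plasmacytoid dendritic cells, and cells positive for CD138, a plasma cell surface protein, were combined. The proportions are not given in the sources used here, so the sort itself can decide how large a share each type takes.

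Plasmacytoid dendritic cells are the dendritic cell lineage specialised in producing type I interferon after TLR7 and TLR9 detect RNA and DNA in endosomes. The E protein E2-2, encoded by Tcf4, maintains their identity against the inhibitor Id2, and IRF8, SPIB, BCL11A and RUNX2 act beside it. In mice they carry B220, Siglec-H and BST2, many express Dntt and sterile immunoglobulin transcripts, and they share early lymphoid progenitors with B cells. In tumours they are described as often poor producers of interferon.

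Each genotype was 1 library from pooled mice, so no difference below has a replicate check, no test was made and no p-value is given. Intervals are 95% intervals and cover counting error only. Date stamps in the files differ between the genotypes, and an effect of the library run and one of the genotype cannot be told apart. The cre is driven in the B lineage, and whether the allele was deleted in plasmacytoid dendritic cells cannot be read from these counts. Prdm1 itself (ENSMUSG00000038151, chromosome 10, 44437174 to 44528558, GRCm38.p6) had 0 UMIs in the plasmacytoid dendritic cells of either library, which allows up to 14.9 counts per 1000000 UMIs (CPM) in the knockout and 9.84 CPM in the control. All other barcodes together had Prdm1 at 10.5 CPM in the knockout library and 13.1 CPM in the control library. Cd79a-positive barcodes, the B-lineage cells that this cre targets, had it at 16.2 CPM in the knockout and 22.9 CPM in the control. The deleted exons are not given in the sources used here, so these counts do not check the deletion. In knockout plasmacytoid dendritic cells a level like that of the other barcodes was not detectable at this depth, while in the control cells the limit of 9.84 CPM lay below the 13.1 CPM of the other barcodes.

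The rule used measured values, so the levels of Siglech, Ccr9, Klk1, Cd300c and Cd79a, and every gene set against the other barcodes, are a description of the cells chosen. The promoters of the 4 genes that chose the cells are shown first, since E2-2 binds E-box motifs and CAGGTG, or its reverse complement CACCTG, is an E-box. The 250 bases before each RefSeq start on GRCm38.p6 are printed 5′ to 3′ on the gene's own strand, with CAGGTG or CACCTG in capitals. Dntt, which the rule did not use, is added for comparison.
Siglech promoter (chr7:55767934-55768183, plus strand): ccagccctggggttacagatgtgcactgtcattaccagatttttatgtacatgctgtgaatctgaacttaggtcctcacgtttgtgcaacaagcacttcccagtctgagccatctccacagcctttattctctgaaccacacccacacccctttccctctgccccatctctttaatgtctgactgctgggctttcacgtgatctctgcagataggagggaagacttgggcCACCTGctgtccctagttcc
Ccr9 promoter (chr9:123766961-123767210, plus strand): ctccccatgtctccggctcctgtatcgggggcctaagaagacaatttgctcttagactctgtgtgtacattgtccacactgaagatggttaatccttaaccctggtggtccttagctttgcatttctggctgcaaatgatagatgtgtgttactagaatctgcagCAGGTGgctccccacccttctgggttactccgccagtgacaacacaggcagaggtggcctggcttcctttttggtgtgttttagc
Klk1 promoter (chr7:44225110-44225359, plus strand): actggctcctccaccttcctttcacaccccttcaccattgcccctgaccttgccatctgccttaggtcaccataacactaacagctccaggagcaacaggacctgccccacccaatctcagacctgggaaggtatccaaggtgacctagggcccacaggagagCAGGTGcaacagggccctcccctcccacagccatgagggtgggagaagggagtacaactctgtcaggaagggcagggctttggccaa
Cd300c promoter (chr11:114960508-114960757, minus strand): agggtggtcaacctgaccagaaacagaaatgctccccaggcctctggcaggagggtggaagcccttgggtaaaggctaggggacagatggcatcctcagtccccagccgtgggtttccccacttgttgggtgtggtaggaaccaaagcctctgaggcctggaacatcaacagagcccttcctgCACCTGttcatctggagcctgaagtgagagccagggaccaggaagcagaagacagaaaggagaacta
Dntt promoter (chr19:41029025-41029274, plus strand): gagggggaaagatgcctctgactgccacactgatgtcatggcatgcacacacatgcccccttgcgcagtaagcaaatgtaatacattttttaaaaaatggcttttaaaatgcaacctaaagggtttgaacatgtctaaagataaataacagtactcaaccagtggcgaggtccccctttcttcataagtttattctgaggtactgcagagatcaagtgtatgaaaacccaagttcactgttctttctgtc
The word was present once in each of the 4 promoters. It lay 20 to 15 bases before the start in Siglech as CACCTG, 85 to 80 bases before it in Ccr9 as CAGGTG, 87 to 82 bases before it in Klk1 as CAGGTG, and 67 to 62 bases before it in Cd300c as CACCTG. For Siglech the start in the promoter table lies inside the RefSeq gene span, which begins at 55768154, so its word lies within that span, and the other 4 promoters adjoin their gene span. The Dntt promoter held neither form in this window. Of all 32851 mouse promoters of that length in the RefSeq table, 5657 (17.2%) held the word on either strand, counted over 27025 genes, of which 19.4% had it. Of the 25 genes that led the comparison with other barcodes, 17 had a promoter in the table and 3 of them (Ddr1, Paqr5 and Pgam2) held the word. A match of these letters is a description of the sequence and not a binding site.

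Few barcodes lay near the threshold. Siglech (ENSMUSG00000051504, chromosome 7, 55768154 to 55779448), which encodes the inhibitory lectin Siglec-H, had 461 UMIs in the knockout plasmacytoid dendritic cells and 808 in the control cells. Single cells held 3 to 25 Siglech UMIs in the knockout (median 14) and 6 to 41 in the control (median 19). Just outside the threshold, 10 knockout barcodes had 1 or 2 Siglech UMIs, against 0 control barcodes. Just inside it, 5 knockout cells had 3 to 5, against 0 control cells. One knockout barcode with 12 Siglech UMIs was left out for its 41 Cd79a UMIs, with 14946 UMIs in all. Cd79a, the signalling chain of the B cell receptor, was at 0 in 30 of 35 knockout cells and in 39 of 39 control cells.

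**Figure D1:**
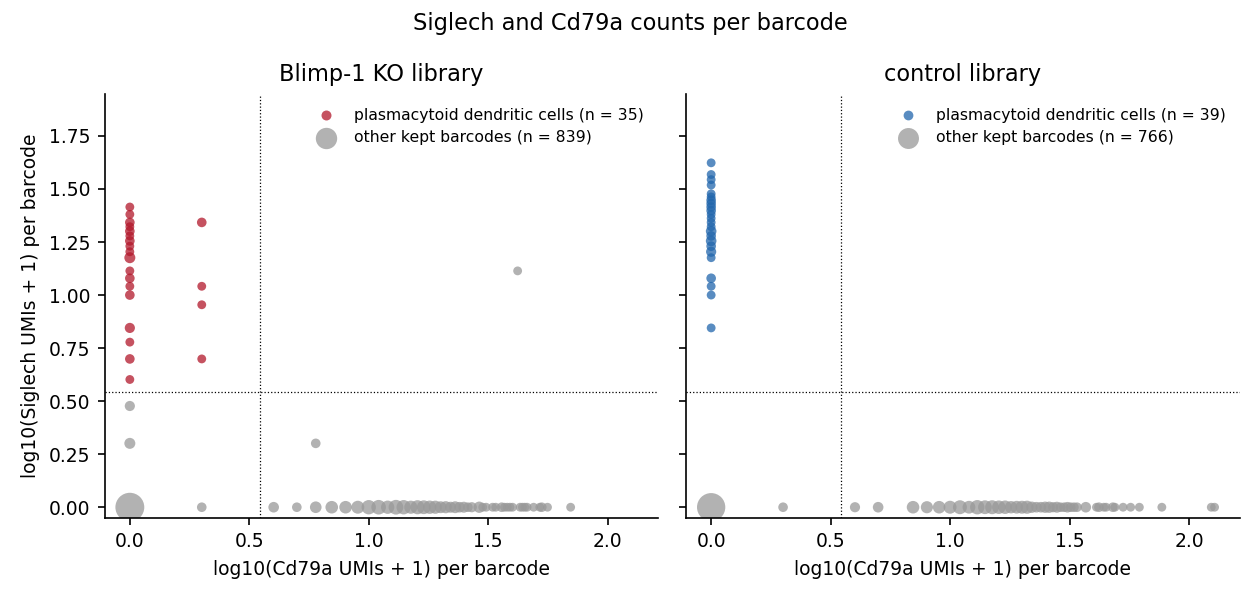
Siglech (y axis) against Cd79a (x axis), both as log10(UMIs + 1) per barcode, with point area growing with the number of barcodes and dotted lines at the thresholds of 3 UMIs. The rule used both axes, so the place of the plasmacytoid dendritic cells (35 knockout, 39 control) among the other kept barcodes (839 and 766) was fixed by it. In the control, Siglech was at 0 in all other barcodes and at 6 or more in the cells. In the knockout no such gap was seen, with 10 barcodes at 1 or 2 Siglech UMIs and 5 cells at 3 to 5.

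Plasmacytoid dendritic cells were 4.0% of kept barcodes in the knockout library (2.80% to 5.53%) and 4.84% in the control library (3.47% to 6.56%). These intervals overlap, so a difference in share was not detectable at this depth. The knockout cells were shallower. Their median was 5353 UMIs (1304 to 15816) and 2065 genes, against 7901 UMIs (4570 to 11190) and 2634 genes in the control cells. The other barcodes were shallower in the knockout library too, with medians of 3957 UMIs there and 5668.5 in the control. Summed over cells, the knockout group held 201711 UMIs and the control group 304842. No barcode of a plasmacytoid dendritic cell was shared by the libraries, although 3 kept barcodes were.

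An unsupervised clustering that left out immunoglobulin genes and the 5 genes of the rule placed 73 of the 74 cells in 1 cluster of 78. The other 5 barcodes of that cluster were knockout barcodes with 1, 1, 2, 2 and 12 Siglech UMIs. The cell placed elsewhere was 1 of 3 that carried many transcripts of another cell type. That knockout cell had 15816 UMIs, the most of any, with 240 UMIs of the granzyme Gzmc, 34 of the NK and T cell chemokine Xcl1, 14 of Cd3e and 17 of Cd3g beside 10 of Siglech. Its NK cell markers summed to 36.0 and its T cell markers to 35.4 per 10000 UMIs, and it was the only plasmacytoid dendritic cell that the doublet caller Scrublet marked. One control cell had 44 UMIs of the neutrophil gene S100a9, 20 of S100a8, 18 of Cd14 and 89 of the interleukin-1 antagonist Il1rn beside 16 of Siglech, and its neutrophil markers summed to 77.8 per 10000 UMIs. Another control cell summed to 23.6 per 10000 UMIs for T cell markers, with 5 UMIs of Cd3d beside 21 of Siglech. In the remaining 34 knockout and 37 control cells no such sum passed 3.62 per 10000 UMIs in the knockout and 9.87 in the control. These 3 mixed-marker cells, set apart after seeing the data, meet the rule and stay in all values below. Values without them are given beside the results they move most.

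Most NK, B cell, macrophage and cell cycle markers were low, while some dendritic cell markers were high. Of the 10 NK cell markers, 10 were at 0.25 times their level in other barcodes or less in both libraries, as were 7 of 8 B cell, 6 of 7 macrophage, 9 of 11 cell cycle and 2 of 6 T cell markers abundant enough to judge. Over all 2790 genes abundant enough, 236 (8.46%) were that low. The 7 B cell markers include Cd79a, which the rule itself kept low, so its level was fixed by the choice of cells. The B cell genes Ms4a1, Pax5 and Ebf1 had 0 UMIs in plasmacytoid dendritic cells of either library. All 7 mast cell or basophil markers and all erythroid or platelet markers found were at 0. Of 6 type 1 conventional dendritic cell markers with enough UMIs over all barcodes, 2 were at least 4-fold above the other barcodes in both libraries, against 3.25% of all genes so filtered. These were Clec9a, a receptor for dead cells also known in plasmacytoid dendritic cells, with 27 UMIs in the knockout and 34 in the control, and Cadm1, with 6 and 7, while Xcr1 and Batf3 were at 0. Of 8 markers of type 2 or migratory conventional dendritic cells, 3 passed 4-fold in both libraries: Cd209a, Mgl2 and Flt3, the receptor of a growth factor for dendritic cells. The 9 markers of that list summed to 476 CPM in knockout and 594 CPM in control plasmacytoid dendritic cells, against 253 and 198 CPM in the other barcodes. The 11 transitional dendritic cell markers summed to 5230 CPM in knockout and 5796 CPM in control plasmacytoid dendritic cells, against 3358 and 4586 CPM. Ly6c2 made up most of that sum, with 3966 CPM in the knockout and 4550 CPM in the control, and was the 1 of the 11 past 4-fold in both libraries. Id2 and Lyz2 were at 0.25 times the other barcodes or less in both, and Axl and Batf3 were at 0. The part of such dendritic cells in the values below was not tested.

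Genes known for this lineage led the comparison with the other barcodes. Of 1568 genes with at least 50 UMIs in plasmacytoid dendritic cells, 181 (11.5%) were at least 4-fold higher in both libraries. A filter of 20 or more UMIs over all kept barcodes, these cells included, gave 370 of 11380 genes (3.25%). This filter depends less on the level in these cells but is not free of it. Dntt, with all of its 125 UMIs in them, passed through these cells alone. With that second filter, 36 of 49 surface and cytoplasmic genes listed for plasmacytoid dendritic cells passed 4-fold in both libraries. That list was drawn up with results of these data known, so its count is a description.

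Cox6a2, a muscle-type subunit of cytochrome c oxidase, had the highest-ranked ratio, with 2523 CPM in knockout plasmacytoid dendritic cells against 5.35 CPM in other knockout barcodes, and 2831 against 4.20 CPM in the control. Smim5, a small membrane protein, stood at 471 and 623 CPM in the knockout and control cells, and at 0.573 and 0.751 CPM in the other barcodes of those libraries. Cox6a2 was not the only muscle gene here. Atp2a1, the calcium pump of fast muscle, was at 288 CPM in knockout and 335 CPM in control cells. Pgam2, the muscle phosphoglycerate mutase, had 27 UMIs in the knockout cells and 24 in the control cells, and Sh3bgr had 27 and 55. None of these 3 exceeded 1 CPM in the other barcodes. Other leading genes were Pltp, which transfers phospholipids between lipoproteins (1601 CPM in knockout and 1912 CPM in control cells, 42.8-fold and 78.1-fold above the other barcodes), Lefty1, a secreted antagonist of the TGF-beta family (195-fold and 236-fold), Upb1, an enzyme of pyrimidine breakdown (125-fold and 175-fold), and Tsc22d1 (36.1-fold and 40.8-fold).

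**Figure D2:**
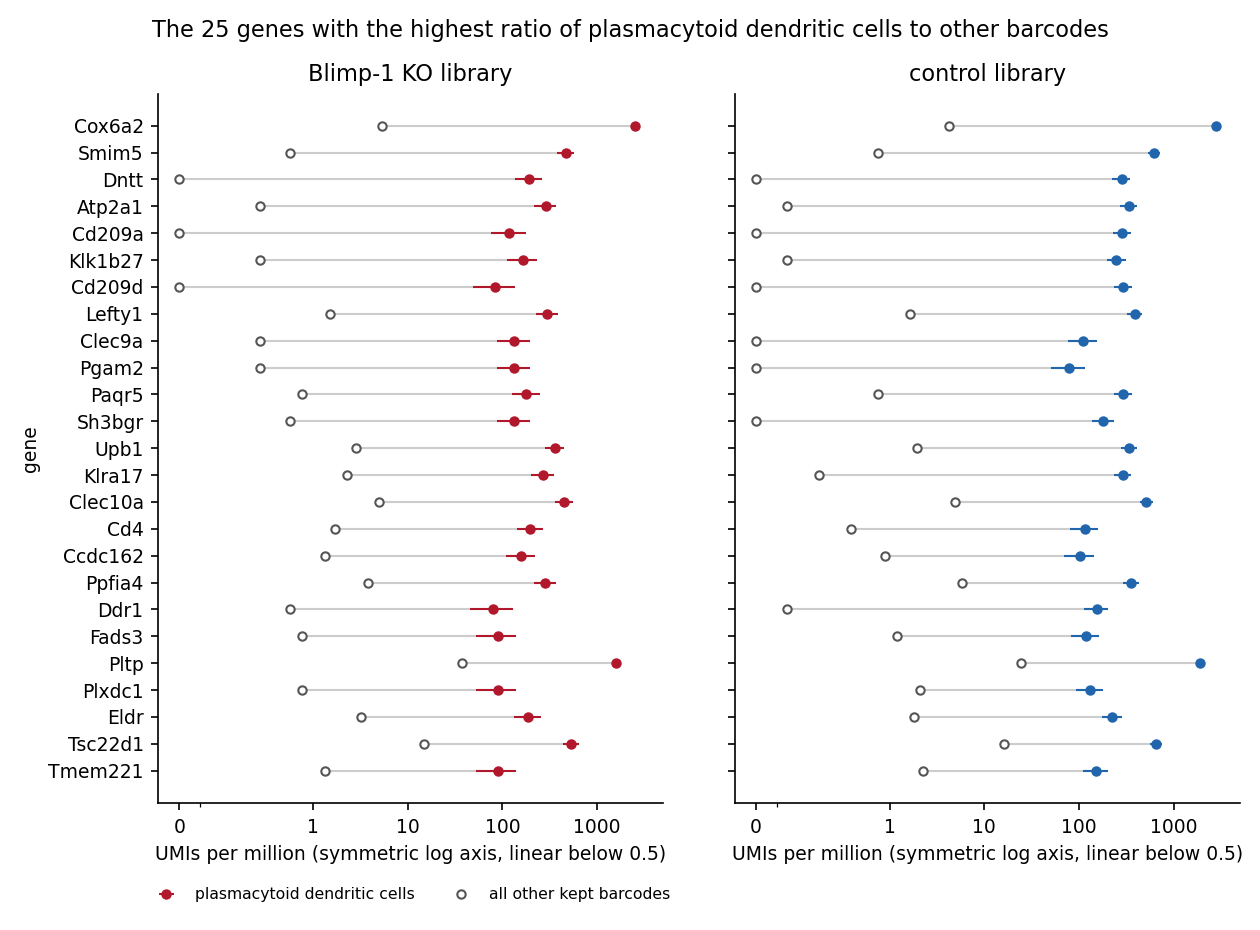
Level in CPM, UMIs per 1000000 (x axis, symmetric log scale) of the 25 genes with the highest ratio, for plasmacytoid dendritic cells (filled, with 95% counting intervals) and all other kept barcodes (open) in the knockout and control libraries. Cox6a2 reached 2523 and 2831 CPM against 5.35 and 4.20 CPM, and Dntt, Cd209a and Cd209d were at 0 in all other barcodes of both libraries.

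The kallikrein Klk1 varied widely from cell to cell. Klk1 (ENSMUSG00000063903, chromosome 7, 44225360 to 44229622), a tissue kallikrein, had 385 UMIs in knockout and 757 UMIs in control plasmacytoid dendritic cells, or 1909 and 2483 CPM. The other barcodes had Klk1 at 8.97 CPM in the knockout library and 1.5 CPM in the control library. Its near relative Klk1b27 had 33 UMIs in the knockout and 76 in the control, and since kallikrein genes are close copies, reads may be shared between them. Klk1 was present in 30 of 35 knockout and 36 of 39 control cells. Its median was 6.32 UMIs per 10000 in knockout cells and 18.9 in control cells, with ranges of 0 to 89.5 and 0 to 76.9, so the groups overlapped fully. Ccr9, the receptor for the gut and thymus chemokine CCL25, had 202 UMIs in the knockout and 385 in the control (1001 and 1263 CPM). Cd300c, an activating receptor, had 82 and 129 (407 and 423 CPM).

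Transcription factors known for the lineage, among them Tcf4 and Irf8, stood above the other barcodes in both genotypes. Of 39 listed factors measured, 7 were at least 4-fold above the other barcodes in both libraries, against 3.25% of all genes. Of the 19 abundant enough to judge, 4 were at 0.25 times or less in both, Id2 among them, against 8.46% of all genes. Tcf4, which encodes E2-2, stood at 734 CPM in knockout and 768 CPM in control plasmacytoid dendritic cells, against 79.1 and 66.4 CPM in the other barcodes. Irf8, needed for dendritic cell development, was at 3103 and 3139 CPM in plasmacytoid dendritic cells, against 736 and 517 CPM. Bcl11a was at 322 and 413 CPM, against 33.8 and 18.5 CPM, and Spib at 263 and 295 CPM, against 42.0 and 22.5 CPM. Runx2, which directs egress from bone marrow, was at 312 CPM in knockout and 253 CPM in control cells, against 35.3 and 25.2 CPM. Mycl, a MYC relative of dendritic cells, was counted only 6 and 18 times. Id2, the inhibitor of E proteins, had 14 UMIs in the knockout, 9 of them in the mixed-marker cell, and 2 in the control, against 606 and 388 CPM in the other barcodes. Between genotypes, 14 of 24 factors with 20 or more UMIs were higher in the knockout and 10 lower. Their median on the log2 scale was 0.03, against -0.04 over all 3572 such genes.

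The endosomal receptors for nucleic acids and their helpers were expressed, but the listed genes of this group went both ways. Of 39, 7 passed 4-fold over the other barcodes in both libraries, against 3.25% of all genes. Of the 24 abundant enough to judge, 5 were at 0.25 times or less in both, against 8.46% of all genes. Tlr7, the RNA receptor, was at 174 CPM in knockout and 138 CPM in control plasmacytoid dendritic cells, against 11.5 and 12.0 CPM in other barcodes. Tlr9, the DNA receptor, had 15 UMIs in the knockout and 12 in the control (74.4 and 39.4 CPM, against 8.21 and 6.46 CPM). Pld4, an endosomal nuclease, stood at 1443 and 1653 CPM, against 92.8 and 94.4 CPM, and Ctsl, a protease of the endosome, at 1953 and 1844 CPM, against 103 and 129 CPM. Tyrobp, the DAP12 adaptor through which Siglec-H signals, was at 6202 CPM in knockout and 7574 CPM in control cells. Unc93b1, the chaperone that carries TLR7 and TLR9 to endosomes, had 203 UMIs in the knockout and 443 in the control, or 1006 and 1453 CPM. Its knockout over control ratio was 0.693 (0.584 to 0.820), and 0.740 without the mixed-marker cells. The same ratio was 0.926 in all other barcodes. Over the 23 genes of this group with 20 or more UMIs, 12 were higher and 11 lower in the knockout. Their median on the log2 scale was 0.00.

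No interferon transcript was found. Of 30 listed type I and III interferon and cytokine genes, 25 had 0 UMIs in plasmacytoid dendritic cells of both libraries, among them every listed Ifna gene, Ifnb1, Il6 and Il12b. A count of 0 allows up to 14.9 CPM in the knockout cells and 9.84 CPM in the control cells. Il12a, the p35 chain of interleukin-12, had 3 UMIs in the knockout and 14 in the control. Tgfb1 was at 293 CPM in knockout and 266 CPM in control cells, near its level in other barcodes (264 and 235 CPM). Of 40 interferon-induced genes, 1 passed 4-fold over the other barcodes in both libraries, a share near the 3.25% of all genes, and 6 of the 31 abundant enough to judge were at 0.25 times or less in both, against 8.46% of all genes. The 1 was Bst2, the tetherin used as a surface marker of these cells (4799 CPM in knockout and 5619 CPM in control, against 393 and 423 CPM). Isg15, a ubiquitin-like effector, was at 407 and 404 CPM in plasmacytoid dendritic cells, against 521 and 672 CPM in other barcodes. Ifit3 had 0 UMIs in the knockout and 10 in the control cells. Of the 24 such genes with 20 or more UMIs, 13 were higher in the knockout and 11 lower (median 0.02 on the log2 scale).

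Few antigen presentation genes stood far above the other barcodes, many of which were B cells. In both libraries 1 of 16 class II genes and 0 of 21 class I genes passed 4-fold, against 3.25% of all genes. Of those abundant enough to judge, 2 of 11 class II and 0 of 20 class I genes were at 0.25 times or less in both. The share of all genes that low was 8.46%. Cd74, the invariant chain of MHC class II, was at 7253 CPM in knockout and 6456 CPM in control plasmacytoid dendritic cells, against 5834 and 5275 CPM in other barcodes. H2-Aa was at 2008 and 1716 CPM, against 1586 and 1393 CPM. H2-Eb1 had 199 UMIs in each library, which is 987 CPM in the knockout and 653 CPM in the control. H2-DMb1, part of the H2-M peptide exchange factor, was at 203 CPM in knockout and 328 CPM in control cells, against 44.5 and 50.3 CPM. Of 29 listed costimulation, checkpoint and effector genes, 4 passed 4-fold in both libraries, against 3.25% of all genes. Of the 11 abundant enough to judge, 4 were at 0.25 times or less in both, against 8.46% of all genes. The costimulation genes Cd40, Cd80 and Cd86 had few UMIs or none. Cd40 had 0 UMIs in either library, Cd80 had 0 in the knockout and 1 in the control, and Cd86 had 2 and 6. Lag3, a checkpoint receptor that binds MHC class II, was at 416 and 420 CPM in plasmacytoid dendritic cells, against 87.1 and 85.6 CPM in other barcodes. Cd274, which encodes PD-L1, had 0 UMIs in the knockout and 15 in the control, 12 of them in a mixed-marker cell.

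Among homing genes, Ccr7 was near 0. Selplg, the P-selectin ligand, was at 1740 CPM in knockout and 1778 CPM in control plasmacytoid dendritic cells. Cxcr3, the receptor for interferon-induced chemokines, was at 114 and 148 CPM. Ccr7, which guides cells to lymph nodes, had 3 UMIs in the knockout and 0 in the control, against 141 and 115 CPM in other barcodes, and S1pr1 had 0 in both. Of 17 homing genes with 20 or more UMIs, 5 were higher and 12 lower in the knockout, against 1667 and 1905 of all such genes. The median of the homing genes on the log2 scale was -0.25, and -0.08 without the mixed-marker cells. Over all genes it was -0.04 and -0.03.

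Inhibitory and lectin receptors were the group with the most members above other barcodes after the lineage list. Of 33 measured, 10 were at least 4-fold higher in both libraries, against 3.25% of all genes. Siglech and Cd300c, which chose the cells, are among the 10, so their place was fixed by the rule. Bst2, Lair1, Clec10a, Cd209d and Klra17 are also in the lineage list. In the other direction, 3 of 11 abundant enough to judge were at 0.25 times or less in both libraries, against 8.46% of all genes. Lair1, a collagen receptor, was at 550 CPM in knockout and 564 CPM in control plasmacytoid dendritic cells, against 17.8 and 20.3 CPM. Clec10a, a galactose-type lectin, was at 451 and 515 CPM, 90.9-fold and 104-fold above other barcodes. Both lectins of the DC-SIGN family among them were lower in the knockout. Cd209a had 24 UMIs there against 88 in the control (119 and 289 CPM, ratio 0.412, 0.251 to 0.653), and Cd209d had 17 against 90 (84.3 and 295 CPM, ratio 0.285, 0.159 to 0.483). Both had 0 UMIs in all other barcodes. Cd209a was found in 7 of 35 knockout and 13 of 39 control cells, and Cd209d in 9 and 18. The highest control cell held 26 Cd209a UMIs and the highest knockout cell 12, so a few cells carried much of each sum, and reads may be shared between these related genes. Between genotypes, 3 of 23 receptors were higher in the knockout and 20 lower, 3 of these past 2-fold. Over all 3572 genes with 20 or more UMIs, 1667 were higher and 1905 lower, 116 of the latter past 2-fold. The 23 include Siglech and Cd300c, which chose the cells, and genes of the lineage list. The median of the receptors on the log2 scale was -0.22 (-0.18 without the mixed-marker cells), against -0.04 over all genes.

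Dntt and immunoglobulin constant-region transcripts were present without the signs of a rearranged receptor. Dntt (ENSMUSG00000025014, chromosome 19, 41029275 to 41059525), the terminal transferase that adds bases at V(D)J junctions, had 39 UMIs in knockout and 86 UMIs in control plasmacytoid dendritic cells (193 and 282 CPM). The ratio was 0.685 (0.457 to 1.01), so its interval includes 1. It was at 0 in all 839 other knockout barcodes and all 766 other control barcodes. Dntt was found in 17 of 35 knockout cells and 26 of 39 control cells. After each cell was thinned to 1500 UMIs, which left out 2 shallow knockout cells, the share was 24.2% in the knockout and 30.8% in the control. Rag1 and Rag2, the recombinase genes, were at 0 in both libraries. Ptcra, the surrogate T cell receptor chain known in plasmacytoid dendritic cells, had 15 UMIs in the knockout and 19 in the control cells and 0 in all other barcodes. Il7r, a receptor of lymphoid progenitors, was at 431 and 538 CPM, against 68.0 and 109 CPM in other barcodes.

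Ighm (ENSMUSG00000076617, chromosome 12, 113418826 to 113422730), the constant region of IgM, had 157 UMIs in knockout plasmacytoid dendritic cells, or 778 CPM (661 to 910), and 171 UMIs in control cells, or 561 CPM (480 to 652). It was found in 32 of 35 knockout cells and 39 of 39 control cells, with a median of 4 UMIs and a maximum of 12 in both. The transcript was spread over nearly all cells. Cd79a-positive barcodes, which are B-lineage cells by that gene, held Ighm at 1013 CPM in the knockout and 715 CPM in the control. Ncr1-positive barcodes, gated on an NK cell receptor, held it at 201 and 124 CPM. After thinning to 1500 UMIs, Ighm was found in 75.8% of knockout and 59.0% of control plasmacytoid dendritic cells, against 19.7% and 17.1% of Ncr1-positive barcodes. The knockout over control ratio of Ighm was 1.39 (1.11 to 1.73) in plasmacytoid dendritic cells, 1.39 in all other barcodes and 1.62 in Ncr1-positive barcodes, so all 3 ratios were above 1.

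Igkc (ENSMUSG00000076609, chromosome 6, 70726435 to 70726754), the kappa constant region, was not spread like Ighm. It had 154 UMIs in knockout cells, or 763 CPM (648 to 894), and 91 UMIs in control cells, or 299 CPM (240 to 367). In the knockout, 19 of 35 cells had it, and 11 cells with 5 or more UMIs held 139 of the 154. In the control, 12 of 39 cells had it, and 4 cells with 5 or more held 75 of the 91. One control cell alone held 50, and without it the control level was 138 CPM. The knockout over control ratio was 2.56 (1.96 to 3.35), and 4.86 without the highest cell of each library. Ncr1-positive barcodes had Igkc at 4.61 CPM in the knockout and 5.10 CPM in the control. In Cd79a-positive barcodes Igkc was at 1432 CPM in the knockout and 11428 CPM in the control, which had the Jchain-high barcodes. After thinning, 45.5% of knockout and 20.5% of control plasmacytoid dendritic cells had an Igkc UMI.

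Of the lambda constant regions, Iglc3 was spread over most cells and Iglc2 was held by few. Iglc3 had 215 UMIs in the knockout and 258 in the control cells (1066 and 846 CPM), in 29 of 35 and 32 of 39 cells. Iglc2 had 74 and 41 UMIs, in 7 and 4 cells. In Ncr1-positive barcodes Iglc3 was at 1.54 CPM in the knockout and 3.53 CPM in the control. The Iglc genes are close copies, so reads may be split between them. Cells with 5 or more Igkc UMIs numbered 11 in the knockout and 4 in the control, those with 5 or more Iglc2 UMIs 5 and 4, and both were met in 4 and 1. Across cells thinned to 1500 UMIs, Ighm and Igkc were uncorrelated by Pearson's r (0.00 over 33 knockout cells, 0.05 over 39 control cells), a description over cells that share a library.

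Variable-region transcripts were nearly missing. In 5′ libraries the reads of a rearranged immunoglobulin transcript start near its V gene. Plasmacytoid dendritic cells had 2 Ighv UMIs in the knockout and 1 in the control, or 0.0127 and 0.00585 per Ighm UMI. Ncr1-positive barcodes had 0.0307 (0.0174 to 0.0503) in the knockout, so Ighm with few Ighv UMIs was not particular to plasmacytoid dendritic cells there. In the control they had 0.330, with 95 of 104 Ighv UMIs in 1 barcode. Cd79a-positive barcodes had 6.01 and 93.2 per Ighm UMI. In the control, the Jchain-high barcodes held 128195 of these 131085 Ighv UMIs but 494 of the 1407 Ighm UMIs. They also held 16114 UMIs of Igha, the IgA constant region, so the 93.2 is not a value per IgM transcript. Per Igkc UMI, plasmacytoid dendritic cells had 0.0260 Igkv UMIs in the knockout and 0.0989 in the control, against 9.46 and 12.1 in Cd79a-positive barcodes. No plasmacytoid dendritic cell barcode carried a productive V(D)J contig, 0 of 35 in the knockout, which allows up to 8.57%, and 0 of 39 in the control, which allows up to 7.69%. Contigs were found on 97.1% of Cd79a-positive barcodes in the knockout and 48.3% in the control. The Ighm to Igkc ratio was 1.02 in knockout and 1.88 in control plasmacytoid dendritic cells, 0.707 and 0.0626 in Cd79a-positive barcodes, 43.5 and 24.2 in Ncr1-positive barcodes, and 0.0233 in the Jchain-high barcodes of the control. The part of free RNA in the Igkc counts was not tested.

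**Figure D3:**
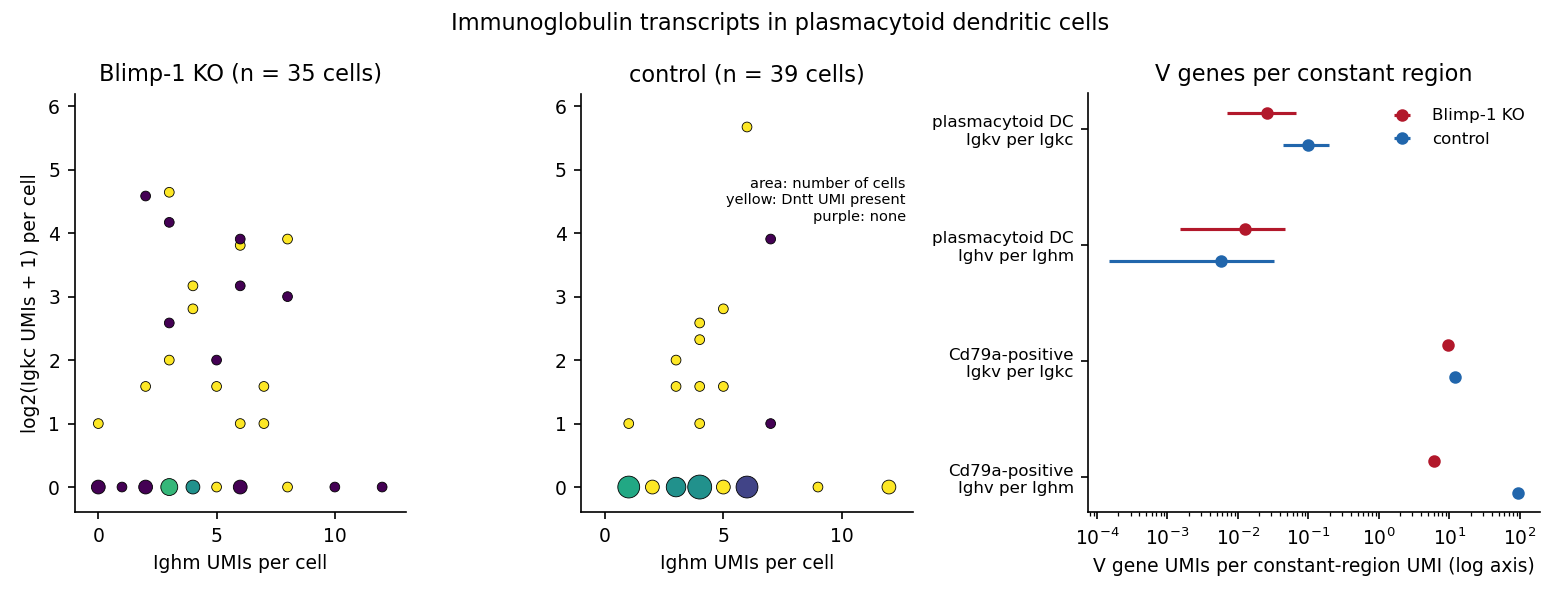
Left and middle, Ighm UMIs (x axis) against log2(Igkc UMIs + 1) (y axis) per plasmacytoid dendritic cell in the knockout (35 cells) and control (39 cells), with point area for the number of cells and colour for the share of them with a Dntt UMI. Right, V gene UMIs per constant-region UMI on a log axis with 95% counting intervals. The plasmacytoid dendritic cells lie at 0.0989 or less, and the Cd79a-positive barcodes at 6.01 or more. Most Ighv UMIs of the control Cd79a-positive barcodes were in Jchain-high barcodes, which also carried Igha.

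Cd74, Ly6d, Igkc, Ly6c2 and Klk1 were among the genes that varied most between plasmacytoid dendritic cells. After thinning, the median ratio of variance to mean over 817 genes was 1.06 in the knockout and 1.07 in the control, near the 1 that counting alone would give. Cd74 reached 7.13 and 6.46, Ly6d, a marker of lymphoid-primed progenitors, 5.54 and 5.01, Igkc 4.62 and 6.35, Ly6c2 4.40 and 5.06, and Klk1 5.65 and 4.32. Iglc2 reached 6.93 in the knockout and was lower in the control. Gm42418, an RNA that overlaps ribosomal RNA sequence, reached 16.8 and 6.27. Cd74 ranged from 1.67 to 241 UMIs per 10000 in knockout cells (median 63.9) and from 0 to 149 in control cells (median 65.3). H2-Aa followed it from cell to cell, with a Pearson's r of 0.76 (Spearman 0.78) over 33 knockout cells and 0.60 (0.77) over 39 control cells. The cells of a library share their preparation, so these are descriptions. Ly6d and Cd74 were less closely related, with a Pearson's r of 0.15 (Spearman 0.29) in the knockout and 0.02 (0.12) in the control. Cd8b1, a chain of CD8, was at 0 in most cells, with 15 of 35 knockout and 17 of 39 control cells holding any and single cells reaching 41 UMIs in the knockout and 18 in the control.

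**Figure D4:**
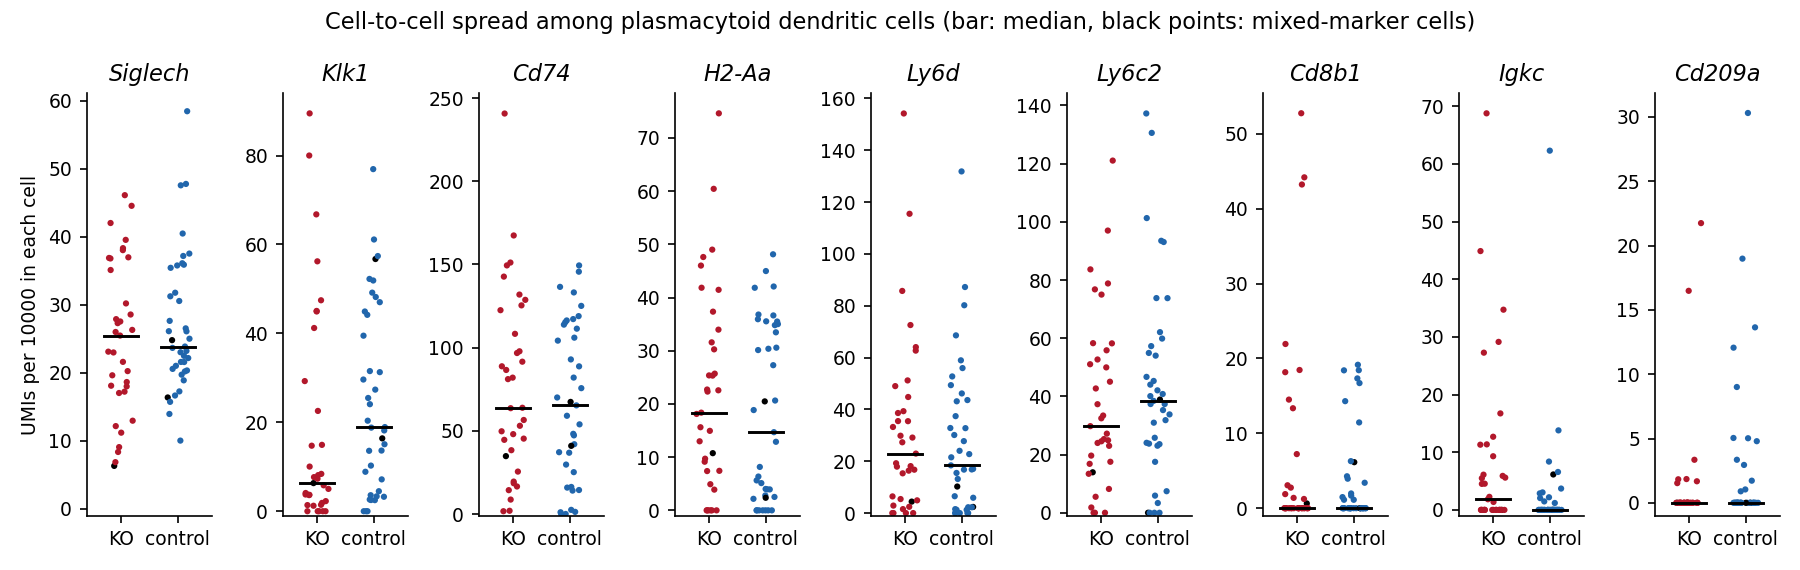
UMIs per 10000 (y axis) of 9 genes in each plasmacytoid dendritic cell of the knockout (left) and control (right) library, with bars at the median and black points for the 3 mixed-marker cells. Klk1 has medians of 6.32 in the knockout and 18.9 in the control with overlapping ranges, and Cd8b1, Igkc and Cd209a lie at or near 0 in most cells with a few cells far above.

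Few genes differed by 2-fold between the genotypes. Of 1568 genes with at least 50 UMIs, 9 (0.574%) were at least 2-fold higher in the knockout plasmacytoid dendritic cells and 8 (0.51%) at least 2-fold lower. Without the 3 mixed-marker cells these were 12 of 1460 (0.822%) and 9 of 1460 (0.616%). Of the 17 genes past 2-fold with all cells and the 21 without those 3, 12 were shared. Several of the largest ratios were set by single cells. Gzmc had 249 UMIs in the knockout against 0 in the control, with 240 in the mixed-marker cell. AW112010, an interferon-induced RNA, had 63 against 9 UMIs (ratio 10.6), and 3 against 2 without those cells. Il1rn had 0 UMIs in the knockout against 90 in the control, 89 of them in 1 mixed-marker cell.

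Klf2 was higher in the knockout and stayed so without the mixed-marker cells. Klf2, a transcription factor that controls trafficking receptors, had 103 UMIs in 25 of 35 knockout cells and 73 in 27 of 39 control cells (511 and 239 CPM, ratio 2.13, 1.56 to 2.92). Its ratio was 2.28 without those cells, 0.906 in all other barcodes and 0.965 in Ncr1-positive barcodes. Jun, an immediate early gene, had 142 UMIs in the knockout and 108 in the control (704 and 354 CPM, ratio 1.99, 1.54 to 2.58), against 0.991 in other barcodes. Shisa5, an endoplasmic reticulum protein tied to p53-induced death, had 97 and 66 UMIs (ratio 2.22, 1.61 to 3.08), of which 1 knockout cell held 30. Cited2, a transcriptional co-regulator, had 35 and 19 (ratio 2.78, 1.55 to 5.15), with 19 of the 35 in 1 cell, and a ratio of 1.67 without the highest cell of each library. Cd8b1 had 147 and 129 UMIs (729 and 423 CPM, ratio 1.72, 1.35 to 2.20). Cd4, also carried by mouse plasmacytoid dendritic cells, had 40 and 35 (198 and 115 CPM, ratio 1.73, 1.07 to 2.80), and a ratio of 2.13 without the mixed-marker cells. Txndc5, a protein disulfide isomerase of the secretory pathway, had 72 and 61 UMIs (ratio 1.78, 1.25 to 2.55), against 0.249 in other barcodes, which in the control included the Jchain-high barcodes. Vim, Cd52, S100a10 and Mif had ratios of 1.85, 1.63, 1.88 and 1.81. For Vim and Cd52 these were 1.43 and 1.25 without the mixed-marker cells, and for Mif 1.31 without the highest cell of each library.

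After Il1rn, the genes lower in the knockout included Fcrla, Slamf9 and Slpi. Fcrla, an intracellular Fc receptor-like protein of B cells, had 51 UMIs in the knockout and 147 in the control (ratio 0.524, 0.374 to 0.726), in 22 and 29 cells. Its ratio in other barcodes was 1.47. Slamf9, a SLAM family receptor, had 40 and 107 (0.565), and a ratio of 0.678 without the mixed-marker cells. Slpi, a secreted protease inhibitor, had 61 and 165 (0.559), and 0.650 without the mixed-marker cells; another control cell held 65. Txnip, a regulator of glucose uptake, was at a ratio of 0.554, against 1.19 in other barcodes. Tex261 and Slc27a1, a fatty acid transporter, each had 11 and 41 UMIs (0.405), in 9 knockout and 26 control cells. Ndufaf8, an assembly factor of respiratory complex I, had 12 and 43 (0.422), and Rnaset2b, a lysosomal ribonuclease with a near-identical copy, 22 and 67 (0.496). The genes of the rule were also a little lower in the knockout, which is a description, since they chose the cells. Siglech had a ratio of 0.862 (0.767 to 0.968), Klk1 0.769, Ccr9 0.793 (0.665 to 0.943) and Cd300c 0.961. Without the mixed-marker cells the ratio of Siglech was 0.902 (0.801 to 1.01) and that of Ccr9 0.877 (0.731 to 1.05), so both intervals then include 1, and that of Klk1 was 0.834.

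As groups, the lists moved little. The surface and cytoplasmic genes of plasmacytoid dendritic cells were higher in the knockout in 13 of 46 cases and lower in 33. Their median on the log2 scale was -0.19 (-0.15 without the mixed-marker cells). All 3572 genes with 20 or more UMIs had 1667 higher and 1905 lower, a median of -0.04, and 87 (2.44%) and 116 (3.25%) past 2-fold. Secretory pathway genes were higher in 14 and lower in 19 of 33, which turned to 18 and 15 without the mixed-marker cells. Oxidative phosphorylation genes were higher in 12 and lower in 10 of 22, and MHC class I genes in 11 and 9 of 20. Lymphoid and immunoglobulin genes were higher in 8 of 13, with a median of 0.25, and 2 of these 8, Igkc and Iglc2, were past 2-fold. Immediate early and heat shock genes were higher in 8 and lower in 5 of 13, with a median of 0.10. Glycolysis and hypoxia genes were higher in 2 and lower in 6 of 8 (median -0.09), and in 3 and 3 of 6 (median 0.05) without the mixed-marker cells. Apoptosis and survival genes were higher in 5 and lower in 3 of 8. Of the chemokine ligands only 2 had 20 or more UMIs.

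**Figure D5:**
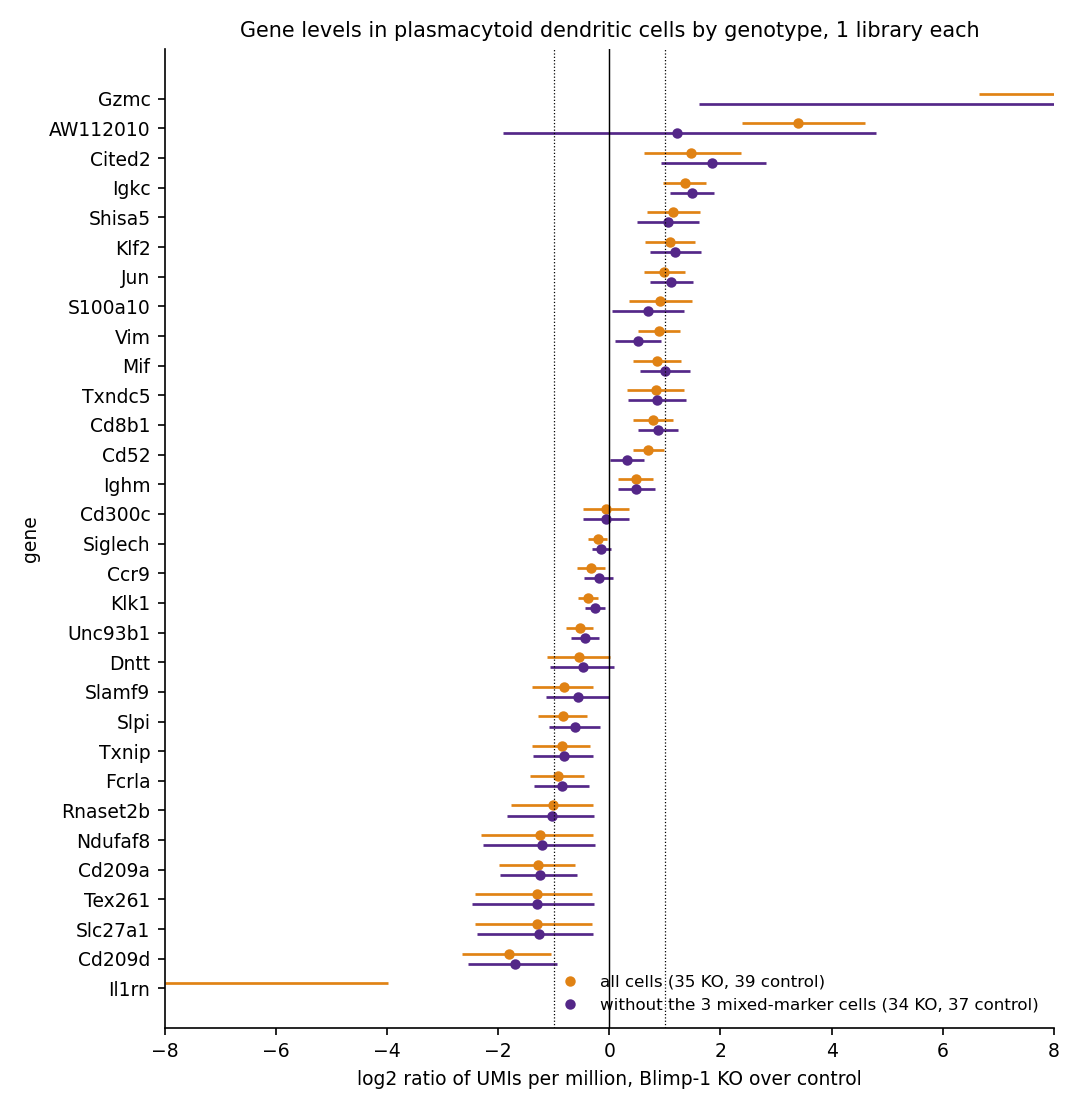
Log2 ratio of CPM, knockout over control, in plasmacytoid dendritic cells (x axis) for the genes named by rule, with all 74 cells (orange) and without the 3 mixed-marker cells (purple); bars are 95% counting intervals, clipped at the axis ends, and dotted lines mark 2-fold. Klf2, Jun and Cited2 stay to the right of 0 and Cd209a, Cd209d and Unc93b1 to the left in both versions, while the interval of AW112010 spans 0 without those cells and Gzmc rests on 9 UMIs.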

How the data were processed

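UMI counts per gene and barcode were deposited by the authors for 1 expression library per genotype, per the file headers by Cell Ranger 6.0.0. The submitters' processing notes name GRCm38 and mm10 as the build. The matrices hold 32285 genes and 897 knockout and 816 control barcodes that were called as cells upstream. The deposited V(D)J tables give read and UMI counts of contigs, and only their barcodes were used here. No doublets were removed; Scrublet in scanpy 1.11.5 marked 3 kept knockout and 1 kept control barcodes, a share too low to rely on in so few cells.

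Samples were grouped by the genotype in their labels. Counts of the barcodes that met the rule were summed per library and given per 1000000 UMIs (CPM), with exact Poisson intervals. Ratios have exact conditional binomial intervals and shares Clopper-Pearson intervals, all at 95%, and a count of 0 is taken to allow 3 counts. No test was made, as each genotype had 1 library. Ratios between genotypes were computed from sums, so a cell with many UMIs weighs more. Comparison classes were gates on 1 gene: Cd79a of 3 or more, Jchain of 100 or more, and Ncr1 of 1 or more with no Cd79a and no Siglech. Shares of cells were compared after thinning each cell to 1500 UMIs.

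Named genes followed a rule: genes with 50 or more UMIs in these cells, ranked by the interval bound of the ratio nearest to 1, the first 25 higher and 12 lower than other barcodes, and the first 12 higher and 12 lower between genotypes, without T cell receptor, immunoglobulin, mitochondrial, ribosomal protein and predicted genes. List counts use genes with 20 or more UMIs. The members and the gene lists were chosen with earlier results of these data known. List genes outside the first 6 of a list by UMIs that are named (such as Ptcra, Il12a, Ifit3, Cd274 and H2-DMb1) and the 3 mixed-marker cells (15 or more UMIs of another type's markers per 10000) were picked with their values in view. Gene positions and promoters are from RefSeq on GRCm38.p6, matched by symbol. Values of some genes were left out and are not reported here. Scripts were tested on simulated data. Alternatives covered the gate, the comparator, doublet removal, thinning, cell weighting and edgeR 4.0.16 TMM factors.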

Additional observations from a re-analysis of the deposited data

Results flagged for a closer look

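For 5 genes, plasmacytoid dendritic cells stood above the other barcodes of one library and below those of the other. The difference between the libraries was not tested, since each genotype had 1 library. Igkc was 2.13 times the level of the other barcodes in the knockout and 0.0883 times in the control, where the other barcodes included the Jchain-high ones. Klf2 was at 1.58 times in the knockout and 0.673 times in the control. Cited2 was at 1.96 and 0.362 times, with 19 of its 35 knockout UMIs in 1 cell. Txndc5 was at 3.83 times in the knockout and 0.535 times in the control. Il1rn was at 0 in the knockout and 2.60 times in the control, with 89 of its 90 UMIs in 1 mixed-marker cell.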

How the results depend on the processing

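No paired analysis was possible because there was 1 expression library per genotype. The share of plasmacytoid dendritic cells was 4.0% in the knockout and 4.84% in the control. Without V(D)J barcodes it was 6.12% in the knockout and 5.86% in the control, so the order of the libraries turned. After thinning all barcodes to 1500 UMIs the share was 2.42% in the knockout and 3.30% in the control. Genes past 4-fold over other barcodes numbered 181, and 288 with a minimum of 20 UMIs or 724 with 1 UMI. Genes past 2-fold numbered 9 higher and 8 lower in the knockout, and 87 and 116 with a minimum of 20 UMIs or 1889 and 2056 with 1 UMI. An Ighm UMI was found in 75.8% of knockout cells at 1500 UMIs, 51.4% at 1000 UMIs and 91.4% unthinned, and in 59.0% of control cells at 1500 UMIs and 100% unthinned. A Dntt UMI was found in 48.6% of knockout and 66.7% of control cells unthinned. The control level of Igkc was 138 CPM without its highest cell. Igkc in the control was 69.9 times the other barcodes once Cd79a-positive and Jchain-high barcodes were left out of them, against 0.0883 times with them. The knockout over control ratio of AW112010 was 0.208 with Cd79a at 0 and 0.547 without Scrublet doublets, both of which leave out the knockout mixed-marker cell. Of the other 875 values for single genes, 832 moved by less than their counting interval and 43 by more. TMM factors left the counts of 9 and 8 as they were. Depth limits what these cells can show: at 35 and 39 cells, a gene under about 10 to 15 CPM can be missed in all of them.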
